A study of Sus scrofa with 6 samples.

Results

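RNA levels of genes of glycolysis and of the response to low oxygen were measured in cultured marrow mesenchymal stem cells of the pig jaw and tibia. The members are 54 gene symbols of glucose use, lactate handling, oxygen sensing and known targets of the hypoxia-inducible factors. One probe set stood for each gene, namely the one with that single symbol in the array's annotation and the highest mean over the 6 arrays. Of the 54 symbols, 39 had such a probe set, among 12218 named genes and 27558 probe sets on the array. The glucose transporters SLC2A1 and SLC2A3, the lactate exporter SLC16A3, the phosphofructokinase subunits PFKL, PFKM and PFKP, and ALDOA, PGAM1, ENO2, LDHB, P4HA2, BNIP3 and INSIG2 are not analysed here. PKM2 and ERO1L are older symbols of PKM and ERO1A, which were measured.

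The cultures labelled mandibular 1 to 3 were grown from marrow of the lower jaw, taken at the symphysis below the front teeth. The cultures set against them, labelled tibial 1 to 3, came from tibial marrow. All 6 were primary cultures at passage 0 from female American Yorkshire pigs aged 4 months, grown in alpha-MEM with 20% serum and harvested at 80% confluence. The design names 3 pigs as the source of both marrows, but no label ties a number to a pig. Whole marrow was plated without sorting, so other adherent cells could remain, and the labels state no oxygen level or glucose content for the cultures. Each value below is an RMA level on the log2 scale, listed in the order of replicates 1, 2 and 3, and each difference is mandibular minus tibial with its standard error (SE) from limma.

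Glycolysis splits glucose into pyruvate in the cytosol, and lactate dehydrogenase turns the pyruvate into lactate when it is not burnt in mitochondria. When oxygen is scarce, the prolyl hydroxylases encoded by the EGLN genes slow down, and the hypoxia-inducible factors HIF1A and EPAS1 escape destruction. They then raise the transcription of most glycolytic enzymes and of genes for vessel growth, acid handling, collagen processing and the removal of mitochondria. HIF proteins are controlled mainly by their stability, so the RNA of HIF1A or EPAS1 is not a measure of HIF activity. Marrow is a tissue of low oxygen, and its stromal cells are known to depend strongly on glycolysis.

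The labels did not separate the arrays, which touches every comparison below. ALX1, a homeobox gene of the facial mesenchyme, measured 8.08, 3.86 and 7.44 in mandibular cultures, against 3.90, 3.54 and 7.97 in tibial cultures. HOXA7, a homeobox gene of the trunk and limbs, measured 5.25, 8.40 and 5.23 in mandibular cultures, against 8.01, 7.92 and 5.89 in tibial cultures. On these genes the array labelled mandibular 2 resembled tibial 1 and 2, and the array labelled tibial 3 resembled mandibular 1 and 3, so results are also given without these 2 arrays. Array medians lay between 5.63 and 5.71, and 3 arrays for each site limit the precision. Of 12 measured stromal markers, THY1, a surface marker of mesenchymal stem cells, measured 10.70, 10.63 and 10.50 in mandibular cultures, against 10.63, 10.61 and 10.64 in tibial cultures. The collagen gene COL1A1 measured 13.45, 13.24 and 13.39 in mandibular cultures, against 13.40, 13.49 and 13.37 in tibial cultures, so both were high on all 6 arrays. Other markers of that list were low on several arrays, with VCAM1, an adhesion receptor gene, at 4.28, 5.57 and 3.68 in mandibular cultures, against 9.52, 7.55 and 4.10 in tibial cultures, and CXCL12, a chemokine gene of marrow stroma, between 4.14 and 5.06.

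No member passed the test between the labelled sites, which does not show that the sites were alike. With limma, 0 of 39 members passed an adjusted p of 0.05, where 0.00% of all probe sets did. At an unadjusted p under 0.05 there were 0 of 39 members, against 3.03% of all probe sets. The mandibular and tibial values overlapped for each of the 39 members, while 6.92% of all probe sets had no overlap. The smallest adjusted p of any probe set was 0.9995. The median difference was -0.04 over the members and 0.0041 over all probe sets, and 15 members had a higher and 24 a lower mean in mandibular cultures, where 51.0% of all probe sets had a higher one. These counts were not stable, since 23 members had a higher mandibular mean without the array labelled mandibular 1, and 23 without tibial 2.

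The genes varied more between single cultures than most probe sets, and they did so across the site labels. Of 39 members, 16 spanned at least 1 log2 unit between their lowest and highest array, against 16.1% of all probe sets. The median range was 0.79 over the members and 0.53 over all probe sets. The count of wide ranges depended on the array labelled mandibular 1, where levels were low, and was 9 without it, against 14.3% of all probe sets. Without mandibular 2 and tibial 3 it was 13, against 12.5%.

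Many members were high, and many low, on the same arrays. Above their own mean over the 6 arrays were 8, 33 and 16 of the 39 members on the arrays labelled mandibular 1, 2 and 3, against 21, 32 and 10 on tibial 1, 2 and 3. Over all probe sets the share above the mean lay between 44.9% and 53.9% on the 6 arrays. Members were thus mostly high on mandibular 2 and tibial 2 and mostly low on mandibular 1 and tibial 3. Mandibular 2 and tibial 2 carry the same replicate number, while mandibular 1 and tibial 3 do not. No label ties a number to a pig, so a part of the pig in this pattern was not tested. The median deviation of a member from its mean was -0.25, 0.23 and -0.05 on mandibular 1, 2 and 3, against 0.03, 0.22 and -0.09 on tibial 1, 2 and 3. With mandibular 2 and tibial 3 left out of the mean, 6 and 16 members lay above it on mandibular 1 and 3, against 22 and 30 on tibial 1 and 2. Over all probe sets these shares were 54.0% and 48.8%, against 49.8% and 45.4%.

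**Figure D1:**
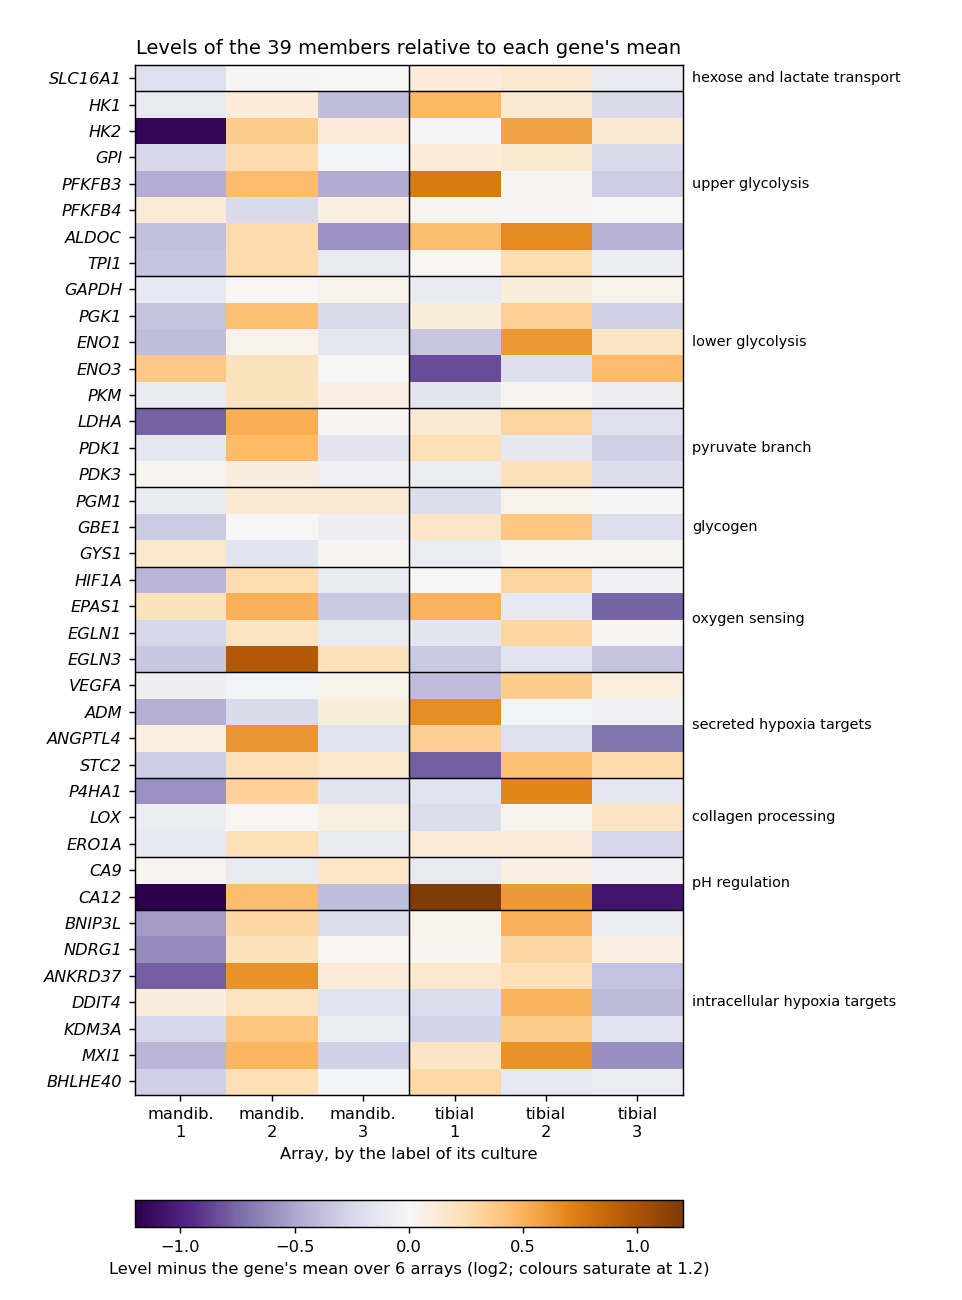
Level of each of the 39 genes on each array minus that gene's mean over the 6 arrays, on the log2 scale, with genes in rows by role and arrays in columns. Orange marks levels above the gene's mean, which 33 of 39 members had on the array labelled mandibular 2 and 32 on tibial 2, and purple marks levels below it, which fill most of the columns of mandibular 1 and tibial 3.

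The highest level of a member was on tibial 2 for 16 genes and on mandibular 2 for 13. Its lowest level was on mandibular 1 for 18 genes, on tibial 3 for 8 and on tibial 2 for 0. As shares, mandibular 1 was lowest for 46.2% of members and 13.0% of all probe sets, and tibial 2 was highest for 41.0% of members and 14.6% of all probe sets. Over the 39 genes, as over all probe sets, the arrays closest to each other carried different site labels. The median absolute difference was 0.13 between mandibular 3 and tibial 3, 0.18 between mandibular 1 and tibial 3, and 0.19 between mandibular 2 and tibial 2, where all probe sets gave 0.15, 0.17 and 0.19. Each of these pairs includes mandibular 2 or tibial 3, and all but mandibular 1 and tibial 3 share a replicate number. Among the 4 arrays other than mandibular 2 and tibial 3, the smallest value was 0.23, between mandibular 3 and tibial 1, where all probe sets gave 0.26. Mandibular 1 and 3 were next at 0.24, where all probe sets gave 0.19. Over the members the value was between 0.24 and 0.52 for pairs of mandibular arrays and between 0.31 and 0.35 for pairs of tibial arrays.

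Entry of glucose into the pathway is represented by the hexokinases, which trap glucose inside the cell by phosphorylation. HK2, the inducible form and a HIF target, measured 6.66, 8.18 and 7.92 in mandibular cultures, against 7.80, 8.38 and 7.94 in tibial cultures. The array labelled mandibular 1 stood below the other 5, and the remaining values of the sites overlapped. Its difference was -0.46 (SE 0.40), and with 1 array left out it ran from -0.75 without mandibular 2 to 0.0053 without mandibular 1. HK1, the form made in most tissues, measured 10.10, 10.32 and 9.83 in mandibular cultures, against 10.68, 10.34 and 9.98 in tibial cultures. The difference was -0.25 (SE 0.21), and with 1 array left out it ran from -0.43 without tibial 3 to -0.079 without tibial 1. Its highest level was on tibial 1 and its lowest on mandibular 3.

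The 7 measured genes of the upper pathway, the hexokinases included, each had a lower mandibular mean, with a median of -0.25 and no call. These differences ran from -0.46 to -0.01, and several did not stay negative when a single array was left out. Those of HK2, GPI and TPI1 turned positive without mandibular 1, and that of PFKFB4 without mandibular 2. ALDOC, an aldolase known best from the brain, measured 6.83, 7.47 and 6.63 in mandibular cultures, against 7.66, 7.89 and 6.77 in tibial cultures. The difference was -0.46 (SE 0.34), and with 1 array left out it ran from -0.79 without tibial 3 to -0.24 without tibial 2. Its levels on mandibular 2, tibial 1 and tibial 2 were all above those on the other 3 arrays. PFKFB3, which makes the sugar phosphate that activates phosphofructokinase and is induced by hypoxia, measured 6.55, 7.47 and 6.55 in mandibular cultures, against 7.77, 7.06 and 6.72 in tibial cultures. Mandibular 2 and tibial 1 were its highest arrays, and a second probe set for it gave a difference of -0.24 (SE 0.42) beside -0.33 (SE 0.35). PFKFB4, a relative of PFKFB3, had a range of only 0.35. The isomerases GPI and TPI1 had ranges of 0.52 and 0.62, each with its highest level on mandibular 2 and its lowest on mandibular 1.

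In the lower pathway, GAPDH, which is often used as a reference gene, varied least among the 39 members. It measured 13.00, 13.12 and 13.17 in mandibular cultures, against 13.02, 13.21 and 13.17 in tibial cultures. The difference was -0.04 (SE 0.12), and with 1 array left out it ran from -0.095 without tibial 1 to 0.012 without mandibular 1. PGK1, which catalyses the first step that yields ATP and is a standard HIF target, measured 10.51, 11.30 and 10.63 in mandibular cultures, against 10.96, 11.20 and 10.58 in tibial cultures. Its levels on mandibular 2, tibial 1 and tibial 2 were above those on the other arrays. ENO1, the common enolase, measured 11.38, 11.80 and 11.63 in mandibular cultures, against 11.41, 12.38 and 11.93 in tibial cultures. The difference was -0.31 (SE 0.26), and with 1 array left out it ran from -0.56 without tibial 1 to -0.07 without tibial 2. Here tibial 2 stood above the rest, and tibial 1 was close to mandibular 1. ENO3, the muscle enolase, was arranged otherwise, with 6.71, 6.53 and 6.33 in mandibular cultures, against 5.50, 6.14 and 6.79 in tibial cultures. The difference was 0.38 (SE 0.32), and with 1 array left out it ran from 0.062 without tibial 1 to 0.71 without tibial 3. It was highest on tibial 3 and lowest on tibial 1. PKM, the pyruvate kinase gene, had a range of 0.34 and averaged 12.52 ± 0.15 in mandibular and 12.41 ± 0.09 in tibial cultures (SD, n = 3 each).

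At the pyruvate branch, LDHA, which makes lactate from pyruvate, measured 11.16, 12.46 and 11.95 in mandibular cultures, against 12.06, 12.25 and 11.76 in tibial cultures. Mandibular 1 was the lowest array and mandibular 2 the highest, so the mandibular cultures spanned the whole range of the tibial ones. The means were 11.86 ± 0.65 in mandibular and 12.02 ± 0.25 in tibial cultures (SD, n = 3 each), and the difference was -0.16 (SE 0.33). With 1 array left out it ran from -0.46 without mandibular 2 to 0.18 without mandibular 1. PDK1, a kinase that keeps pyruvate out of mitochondria, measured 8.55, 9.16 and 8.54 in mandibular cultures, against 8.93, 8.56 and 8.41 in tibial cultures. It was high on mandibular 2 and tibial 1 but not on tibial 2. PDK3, of the same family, had a range of 0.41. SLC16A1, a carrier that moves lactate across the cell membrane, had a range of 0.33 and averaged 8.99 ± 0.11 in mandibular and 9.10 ± 0.12 in tibial cultures (SD, n = 3 each).

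GBE1, the branching enzyme, measured 7.98, 8.30 and 8.24 in mandibular cultures, against 8.48, 8.69 and 8.11 in tibial cultures. The difference was -0.25 (SE 0.18), with an unadjusted p of 0.209, and with 1 array left out it ran from -0.41 without tibial 3 to -0.12 without tibial 2. Its tibial 1 and 2 levels were above all others, and its range was 0.71. GYS1, the glycogen synthase, and PGM1, which links glycogen to glycolysis, had ranges of 0.31 and 0.34.

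**Figure D2:**
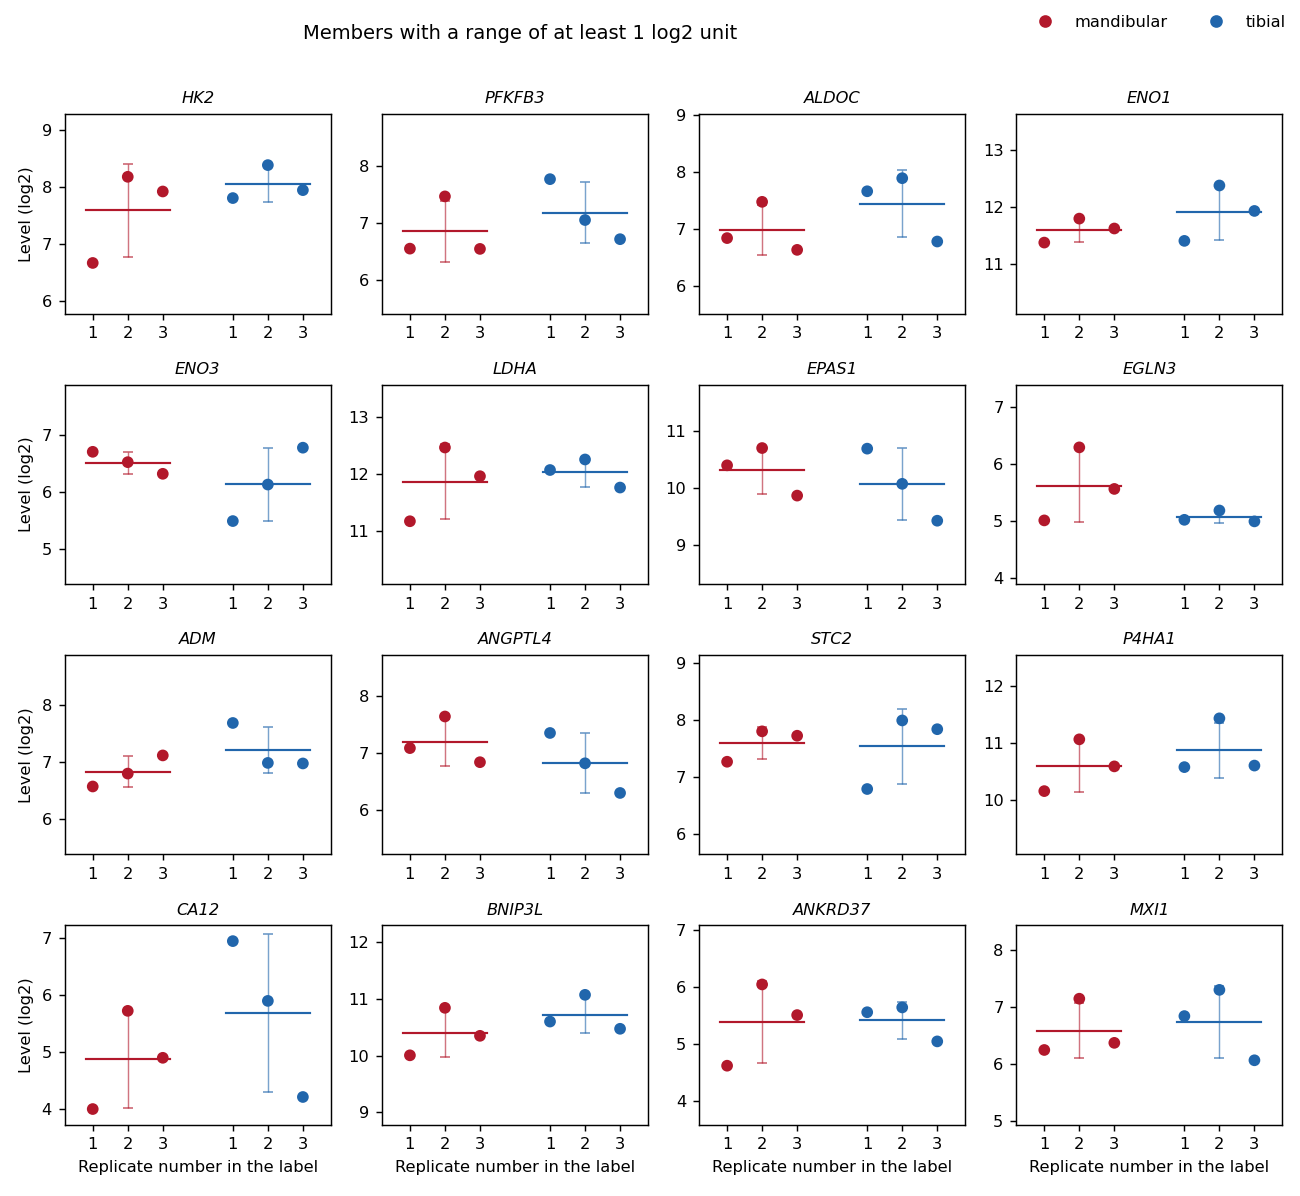
Log2 levels of the 16 members that spanned at least 1 log2 unit, one panel per gene with a common span of 3.5 log2 units. Points are single arrays, mandibular in red on the left and tibial in blue on the right, horizontal lines are group means and bars are SD (n = 3 each); the groups overlap in every panel, and the array labelled mandibular 1 is lowest for HK2, ENO1, LDHA, ADM, P4HA1, CA12, BNIP3L and ANKRD37.

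Among the oxygen sensing genes, both HIF subunit genes varied, and they did not follow the same order over the arrays. HIF1A measured 11.28, 11.95 and 11.60 in mandibular cultures, against 11.69, 11.9966 and 11.66 in tibial cultures. It was highest on tibial 2 and mandibular 2 and lowest on mandibular 1, as were many of the enzymes above. Its difference was -0.17 (SE 0.20), and with 1 array left out it ran from -0.34 without mandibular 2 to -0.0068 without mandibular 1. EPAS1, the related subunit that is prominent in endothelial and stromal cells, measured 10.39, 10.69 and 9.86 in mandibular cultures, against 10.68, 10.07 and 9.42 in tibial cultures. It was highest on mandibular 2 and tibial 1 and lowest on tibial 3. Its difference was 0.26 (SE 0.35), and with 1 array left out it ran from -0.06 without tibial 3 to 0.57 without tibial 1.

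Of the hydroxylases that mark HIF subunits for destruction, EGLN1 and EGLN3 are members, and EGLN2, one of the further pathway genes, had a range of 0.36. EGLN3, itself a HIF target, had the smallest unadjusted p among the members, 0.116, and measured 5.01, 6.29 and 5.57 in mandibular cultures, against 5.02, 5.19 and 4.9959 in tibial cultures. Its mandibular values spread over more than 1 log2 unit while its tibial values lay close together. Apart from mandibular 2, its levels lay below the array medians of 5.63 to 5.71, and the values carry no detection call. The difference was 0.56 (SE 0.31), or 1.47-fold higher in mandibular cultures, and with 1 array left out it ran from 0.22 without mandibular 2 to 0.86 without mandibular 1. EGLN1, the main oxygen sensor of the family, measured 8.93, 9.37 and 9.06 in mandibular cultures, against 9.03, 9.47 and 9.19 in tibial cultures, with its highest levels on tibial 2 and mandibular 2. Its range was 0.54.

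The secreted targets did not move as one group. VEGFA, the main growth factor of vessels, measured 10.43, 10.46 and 10.54 in mandibular cultures, against 10.10, 10.83 and 10.57 in tibial cultures. The difference was -0.02 (SE 0.20), and with 1 array left out it ran from -0.23 without tibial 1 to 0.14 without tibial 2. Only tibial 1 was low and only tibial 2 was high, and a second probe set for it gave -0.01 (SE 0.29). ADM, a peptide that widens vessels, measured 6.57, 6.80 and 7.11 in mandibular cultures, against 7.68, 6.98 and 6.97 in tibial cultures. The difference was -0.39 (SE 0.24), and with 1 array left out it ran from -0.53 without mandibular 3 to -0.15 without tibial 1. Tibial 1 was the highest array. ANGPTL4, an inhibitor of lipoprotein lipase, measured 7.08, 7.64 and 6.83 in mandibular cultures, against 7.35, 6.81 and 6.29 in tibial cultures, highest on mandibular 2 and lowest on tibial 3. The difference was 0.37 (SE 0.31), and with 1 array left out it ran from 0.10 without tibial 3 to 0.63 without tibial 1. STC2, a secreted glycoprotein gene, was lowest on tibial 1, at 7.26, 7.80 and 7.72 in mandibular cultures, against 6.79, 7.99 and 7.84 in tibial cultures.

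Of the genes for collagen processing, P4HA1, a subunit of the enzyme that hydroxylates proline in new collagen, had the wide range. It measured 10.15, 11.06 and 10.59 in mandibular cultures, against 10.57, 11.43 and 10.60 in tibial cultures, with tibial 2 and mandibular 2 above the other 4 arrays, which included tibial 1. LOX, which crosslinks collagen and elastin, had a range of 0.38 and averaged 12.77 ± 0.08 in mandibular and 12.77 ± 0.19 in tibial cultures (SD, n = 3 each). ERO1A, which supplies oxidising power for disulfide bonds, had a range of 0.49.

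CA12, a carbonic anhydrase of the cell surface that handles acid, had the widest range of the 39 genes, 2.95 log2 units. It measured 3.9967, 5.72 and 4.90 in mandibular cultures, against 6.94, 5.89 and 4.21 in tibial cultures, with the highest level on tibial 1 and the lowest on mandibular 1 and tibial 3. Its means were 4.87 ± 0.86 in mandibular and 5.68 ± 1.38 in tibial cultures (SD, n = 3 each), a difference of -0.81 (SE 0.73) or 1.75-fold lower in mandibular cultures, less than the spread within either site. With 1 array left out the difference ran from -1.55 without tibial 3 to -0.18 without tibial 1. CA9, the related enzyme widely used as a hypoxia marker in tumours, stayed between 4.65 and 4.93 on all arrays. The deposited values carry no detection call, so levels close to the arrays' lower quartile, 3.86 to 3.94, cannot be separated from background, as for CA12 on mandibular 1 and tibial 3.

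Of the 7 measured targets that act inside the cell, 7 were above their own mean on mandibular 2 and 6 on tibial 2. BNIP3L, a receptor for the removal of mitochondria, measured 10.0033, 10.84 and 10.35 in mandibular cultures, against 10.60, 11.06 and 10.47 in tibial cultures. The difference was -0.31 (SE 0.25), and with 1 array left out it ran from -0.54 without mandibular 2 to -0.12 without mandibular 1. NDRG1, a stress-induced gene, measured 9.57, 10.38 and 10.18 in mandibular cultures, against 10.20, 10.45 and 10.24 in tibial cultures. The difference was -0.26 (SE 0.22), and with 1 array left out it ran from -0.43 without mandibular 2 to -0.02 without mandibular 1. For both, tibial 2 was highest and mandibular 1 lowest. ANKRD37, a small ankyrin repeat protein gene used as a hypoxia marker, measured 4.63, 6.05 and 5.51 in mandibular cultures, against 5.56, 5.65 and 5.05 in tibial cultures. MXI1, an antagonist of MYC, measured 6.25, 7.15 and 6.38 in mandibular cultures, against 6.85, 7.31 and 6.07 in tibial cultures. Mandibular 2 was the highest array for ANKRD37 and tibial 2 for MXI1. DDIT4, an inhibitor of mTOR signalling, KDM3A, a histone demethylase, and BHLHE40, a transcriptional repressor, had ranges of 0.89, 0.67 and 0.56. The differences of these 7 genes lay between -0.31 and 0.08.

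Leaving out the arrays labelled mandibular 2 and tibial 3 moved most differences downwards. With mandibular 1 and 3 against tibial 1 and 2, 0 of 39 members passed the adjusted threshold, against 0.708% of all probe sets. At an unadjusted p under 0.05 there were 8 of 39 members, against 9.50% of all probe sets. These were 7 members with lower mandibular levels, against 4.90% of all probe sets, and 1 with a higher level, against 4.60%. The 7 were CA12 at -1.97 (SE 0.44), ALDOC at -1.04 (SE 0.19), PFKFB3 at -0.86 (SE 0.27), MXI1 at -0.76 (SE 0.22), BNIP3L at -0.66 (SE 0.24), HK1 at -0.55 (SE 0.21) and PGK1 at -0.51 (SE 0.18). The other was ENO3 at 0.70 (SE 0.28). The size for CA12 is uncertain, since its level on mandibular 1 cannot be separated from background. The smallest adjusted p among the members was 0.111, for ALDOC, in limma. The median over the members was -0.25 and over all probe sets 0.02, and 29 members had a lower and 10 a higher mandibular mean, where 53.8% of all probe sets had a higher one. This comparison leaves 2 arrays for each site and rests on a choice made with the positional genes in view.

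**Figure D3:**
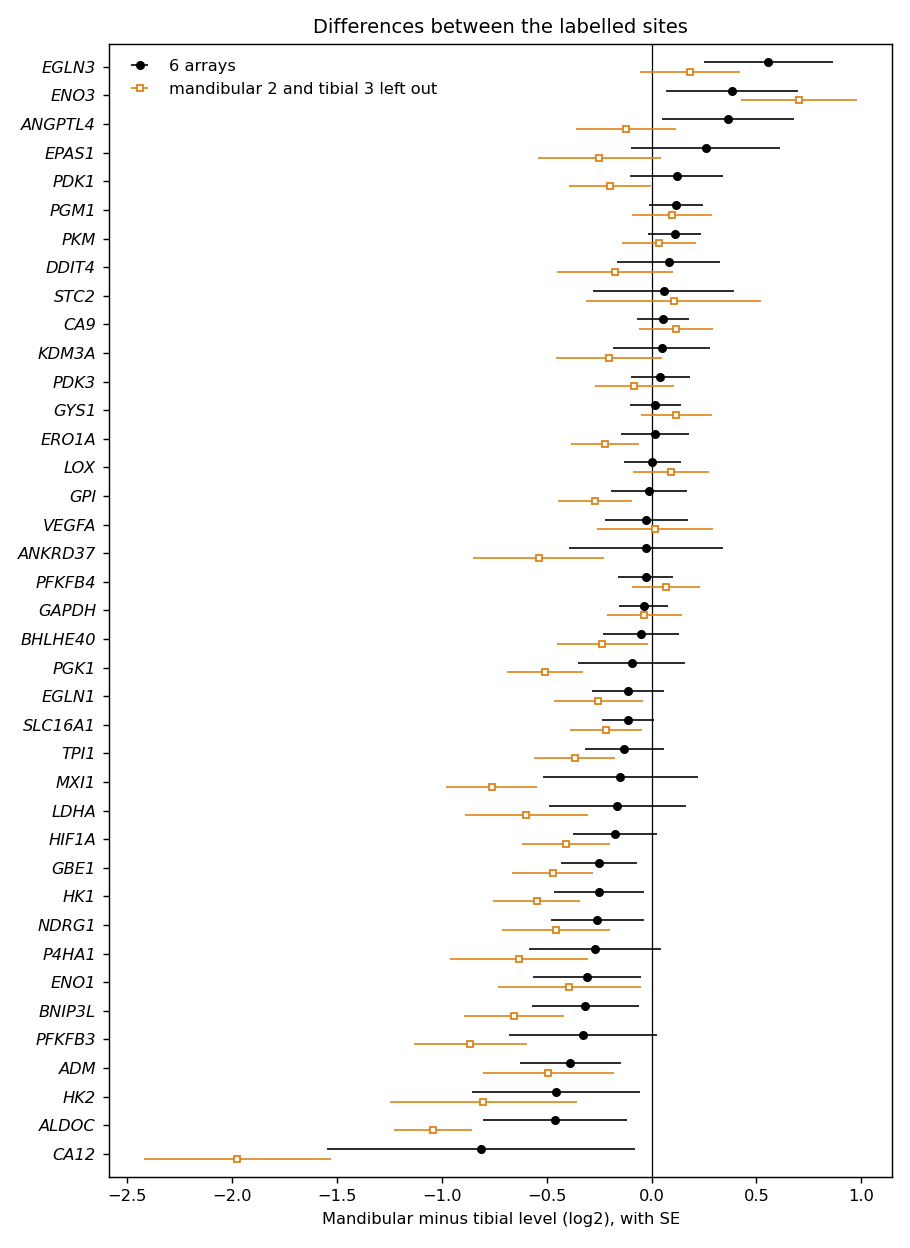
Difference in log2 level between mandibular and tibial cultures for each of the 39 genes, with bars for the SE from limma. Black points use the 6 arrays and orange squares leave out mandibular 2 and tibial 3; the orange values lie further to the left for most genes, with ALDOC at -1.04 and CA12 at -1.97, and the CA12 value rests on a level near background on mandibular 1.

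Markers of other cells differed between the arrays too. The mean of 17 measured macrophage markers was 5.14, 6.31 and 5.13 on mandibular 1, 2 and 3, against 8.57, 7.97 and 5.62 on tibial 1, 2 and 3, and 16 of the 17 had a lower mandibular mean, with 0 called in limma. Without mandibular 2 and tibial 3, 13 of the 17 were called, among them the macrophage receptor gene CSF1R at -3.17 (SE 0.16) with an adjusted p of 0.00598, while 0 of 39 members were. PTPRC, the pan-leukocyte antigen, measured 3.42, 4.86 and 3.71 in mandibular cultures, against 7.66, 6.96 and 3.91 in tibial cultures, and its levels on mandibular 1 and 3 lay below the lower quartile of the arrays. The mean of 7 mitosis genes was 7.82, 7.87 and 8.74 in mandibular cultures, against 6.24, 6.87 and 8.29 in tibial cultures, on the same arrays. The array labelled tibial 1, with the highest macrophage mean, was highest for 5 members, CA12, PFKFB3, HK1, ADM and BHLHE40, or 12.8% against 22.7% of all probe sets. It was lowest for 7, ENO3, PKM, PGM1, VEGFA, STC2, LOX and KDM3A, or 17.9% against 23.9%. Tibial 1, tibial 2 and mandibular 2 had the highest macrophage means and the most members above their own mean, 21, 32 and 33. Mandibular 1, mandibular 3 and tibial 3 had 8, 16 and 10. Among the arrays with high macrophage means the orders differed, with 6.31 and 33 members on mandibular 2, against 8.57 and 21 on tibial 1. The part of these cells in the levels of the 39 genes was not tested, and in cultures measured in bulk fewer cells of a type and less RNA per cell cannot be told apart.

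The other marker lists varied less in their means. Their means lay between 5.83 and 7.73 for 10 osteoclast markers, with the highest value on tibial 1 and 3 of the 10 called without mandibular 2 and tibial 3, and between 9.78 and 10.30 for 12 stromal markers. They lay between 4.28 and 4.88 for 4 endothelial, between 3.32 and 3.82 for 4 erythroid, and between 5.32 and 6.11 for 3 skeletal muscle markers. The haemoglobin gene HBB stayed at or below 2.75. Single genes behind these means differed widely in range. In the osteoclast list the range was 5.62 for MMP9 and 0.19 for CALCR, and in the stromal list 5.85 for VCAM1 and 0.20 for THY1.

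**Figure D4:**
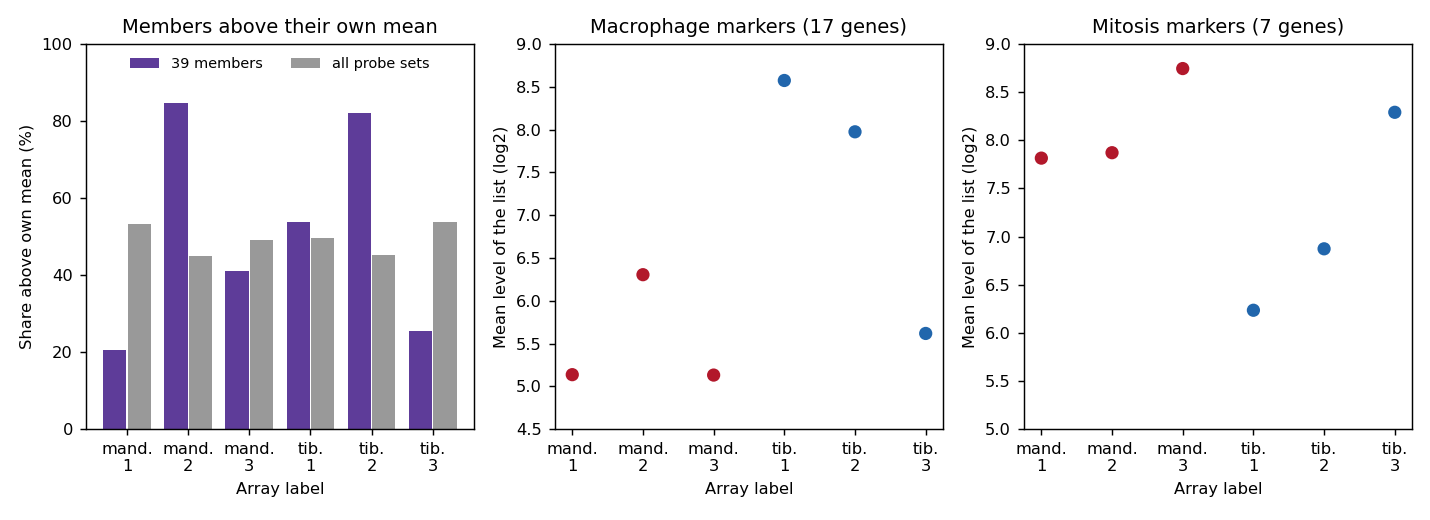
Left, the share of the 39 members (purple) and of all probe sets (grey) above their own mean over the 6 arrays, in percent. Middle and right, the mean log2 level of 17 macrophage and 7 mitosis markers on the same arrays, mandibular in red and tibial in blue. The share of members is highest on mandibular 2 and tibial 2, and the macrophage mean on tibial 1 and tibial 2. Both are higher on mandibular 2, tibial 1 and tibial 2 than on the other arrays.

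The rest of the pathways was examined through 96 further genes of glycolysis and gluconeogenesis, the pentose phosphate pathway, pyruvate dehydrogenase and HIF signalling, of which 67 were measured. In limma 0 of 67 passed the adjusted threshold and 0 had an unadjusted p under 0.05. Their median difference was 0.0002, with 34 higher and 33 lower mandibular means, and 10 spanned at least 1 log2 unit. Without overlap between the sites were 4 of 67, or 5.97%, against 6.92% of all probe sets. These were LDHC, the glucose transporter gene SLC2A4 and the HIF coactivator gene EP300, with higher mandibular means, and EPO, the erythropoietin gene, with a lower one.

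The 4 with the smallest p were LDHC, CXCR4, G6PC3 and TFRC. LDHC, the lactate dehydrogenase of testis, measured 2.67, 2.82 and 2.76 in mandibular cultures, against 2.13, 2.52 and 2.55 in tibial cultures. The difference was 0.35 (SE 0.15), and with 1 array left out it ran from 0.22 without tibial 1 to 0.43 without tibial 3. Its levels cannot be separated from background. CXCR4, a chemokine receptor that HIF induces and that leukocytes carry, measured 4.0039, 4.69 and 4.36 in mandibular cultures, against 6.59, 5.47 and 4.42 in tibial cultures. The difference was -1.14 (SE 0.52), and with 1 array left out it ran from -1.68 without tibial 3 to -0.60 without tibial 1. It was highest on tibial 1 and 2, where the macrophage markers were highest too. G6PC3, a glucose phosphatase, differed by -0.30 (SE 0.15), and TFRC, the transferrin receptor gene, by 0.25 (SE 0.13). With 1 array left out they ran from -0.42 without mandibular 2 to -0.19 without mandibular 1, and from 0.16 without tibial 3 to 0.31 without tibial 2.

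Above their own mean were 30, 37 and 36 of the 67 on mandibular 1, 2 and 3, against 28, 40 and 24 on tibial 1, 2 and 3, or between 35.8% and 59.7%. The genes that follow were chosen after their values were seen. PLOD2, a collagen lysyl hydroxylase and HIF target, measured 10.03, 11.49 and 10.16 in mandibular cultures, against 10.75, 11.19 and 10.12 in tibial cultures. AK4, a mitochondrial adenylate kinase, measured 7.71, 9.18 and 8.01 in mandibular cultures, against 8.27, 8.71 and 7.99 in tibial cultures. WSB1, a HIF target in ubiquitin ligation, measured 10.06, 10.83 and 10.28 in mandibular cultures, against 10.61, 11.04 and 10.19 in tibial cultures. In all 3 the levels on mandibular 2, tibial 1 and tibial 2 were above those on the other arrays. SLC16A7, a pyruvate and lactate carrier, measured 4.34, 6.35 and 4.37 in mandibular cultures, against 7.86, 6.75 and 4.16 in tibial cultures, highest on tibial 1. Without mandibular 2 and tibial 3, SLC16A7 was the 1 gene of the 67 that passed in limma, against 0.708% of all probe sets. The difference was -2.95 (SE 0.37) with an adjusted p of 0.0443 in limma. Its size is uncertain, since the levels on mandibular 1 and 3 lay near the arrays' lower quartile, 3.86 to 3.94.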

How the data were processed

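RNA from 6 cultures was measured on Affymetrix porcine arrays, 1 array per culture. The deposited values are log2 levels made by the authors; the submitters' processing notes name RMA, Transcriptome Analysis Console 3.0 and Expression Console of Affymetrix. RMA equalises the distributions of the arrays, so a change in the total RNA of a culture cannot be seen. No coordinates are printed, since the genome build, like the settings, is not given in the sources used here. Depth does not apply to arrays; their number limits the precision.

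GEO's platform annotation named a single gene for 13157 probe sets; 523 had several symbols and 13878 had none. Apart from calling levels high, low or near background and averaging marker lists, levels of different probe sets are not compared with each other. The test was an unpaired, two-sided comparison in limma (version 3.58.1, R version 4.3.3; lmFit, then eBayes), with Benjamini-Hochberg adjustment over 27558 probe sets and a threshold of 0.05. The fit was also run on simulated data with independent noise for each probe set and array. That run does not cover arrays that go against their labels. Arrays from 1 pig may not be independent. The p-values set each difference against the spread within the sites in these samples, moderated over all probe sets.

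Differences were given for the 12 members with the smallest p, for HIF1A, EPAS1, GAPDH, LDHA and VEGFA, and for the 4 other pathway genes with the smallest p; levels on each array were given for these and for members with a range of at least 1. SLC2A1, also on that rule, is not analysed here. Array levels of PGK1, PDK1 and EGLN1, and the difference of PFKFB3 beside its second probe set, lie outside that rule and were added after their values were seen, as were the members named in the comparison without 2 arrays. The members, lists and alternatives were chosen with earlier results of these data known. The alternatives were leaving out arrays, a replicate block, median centring, filters on mean level, trend and robust fitting, array weights, named genes alone and the mean of a gene's probe sets.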

Additional observations from a re-analysis of the deposited data

How the results depend on the processing

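Over all probe sets there were 0 calls in limma with 6 arrays, with 836 at an unadjusted p under 0.05. Leaving out single arrays gave between 0 and 2 calls, 1 of them without tibial 1 and 2 without tibial 3, and leaving out both mandibular 2 and tibial 3 gave 195. The count at an unadjusted p under 0.05 was 2617 without both, 2070 without tibial 3, 538 without mandibular 3, 415 with a mean level of at least 5, 343 over named genes alone and 1511 with a replicate block. No alternative called a member. The median over the members ranged from -0.15 to 0.02 when single arrays were left out, turning positive without mandibular 1 or tibial 2, and was -0.25 without both doubted arrays. With each array centred on its median it was -0.01, with 18 members higher and 21 lower. With the replicate number as a block there were 0 calls. The median stayed at -0.04, as it had to, since this balanced block changes the SE but no difference. Deviations of same-numbered arrays correlated at -0.03, 0.21 and 0.47 over all probe sets. The best match was the same-numbered array for mandibular 3 only. With 3 arrays for each site, these values cannot settle whether the numbers pair the samples. The block changed no call, but the fit without it had 0 calls to change. It lowered the SE of some genes, as for ALDOC from 0.34 to 0.17, and raised that of others, as for ADM from 0.24 to 0.27.

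Of 312 values for 21 genes under alternatives, 301 kept their direction and none passed the threshold, and 11 turned. The replicate block, the filters, trend and robust fitting and named genes alone cannot change a difference. The same holds for the mean of probe sets where a gene has only 1. The count of kept directions therefore overstates how stable they were. Without both doubted arrays ANGPTL4 was -0.12, EPAS1 -0.25 and VEGFA 0.018, and VEGFA was 0.0012 with centred arrays. Leaving out single arrays, HK2 ranged from -0.75 to 0.0053, EPAS1 from -0.060 to 0.57, GAPDH from -0.095 to 0.012, LDHA from -0.46 to 0.18 and VEGFA from -0.23 to 0.14. Apart from the omitted arrays, the cause was not tested. Without detection calls, low levels cannot be separated from background.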

Other observations

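The values of some further genes of the pathways, chosen after they were seen, show other orders of the arrays. TXNIP, which restrains glucose uptake and is induced by glucose, measured 8.22, 8.72 and 8.45 in mandibular cultures, against 7.57, 9.999 and 8.48 in tibial cultures, and stood highest on tibial 2 and lowest on tibial 1. VLDLR, a lipoprotein receptor gene and HIF target, was lowest on tibial 2, at 10.18, 10.54 and 10.11 in mandibular cultures, against 10.81, 8.71 and 9.44 in tibial cultures. PCK2, the mitochondrial enzyme that makes phosphoenolpyruvate, was higher on mandibular 1, mandibular 3 and tibial 3 than on the other arrays, at 8.56, 8.04 and 8.70 in mandibular cultures, against 7.85, 7.90 and 8.66 in tibial cultures. HK3, the hexokinase of myeloid cells, measured 4.68, 4.80 and 4.87 in mandibular cultures, against 6.09, 5.35 and 4.55 in tibial cultures, with its highest level on tibial 1. PFKFB2 measured 7.02, 7.80 and 7.22 in mandibular cultures, against 7.67, 7.20 and 7.03 in tibial cultures, highest on mandibular 2 and tibial 1, the arrays that were also highest for PFKFB3.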
